A study of Caenorhabditis elegans with 2 samples.

Results

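Genes for the subunits of the 26S proteasome were examined in a binding profile of the chromatin protein FLT-1 in embryos of the nematode Caenorhabditis elegans. Membership was decided by gene name alone, but the set and its contrast were chosen with earlier results of these data known. A protein-coding gene of the WBcel235 annotation was a member when its name began with pas-, pbs-, rpt- or rpn-, and 33 of 19973 nuclear protein-coding genes met this rule. The 78 genes whose names begin with rpl- or rps-, which encode ribosomal proteins, served as a second housekeeping set for contrast.

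The proteasome is the protease that degrades proteins tagged with ubiquitin. Its barrel-shaped core particle is a stack of rings, with outer alpha rings (pas- genes) that gate the entry and inner beta rings (pbs- genes) that hold the cutting sites. A regulatory particle caps the barrel: its base carries a ring of ATPases (rpt- genes) that unfold substrates and its lid (most rpn- genes) removes ubiquitin. The subunits are made in every cell and in matched amounts, and in C. elegans the transcription factor SKN-1A is known to raise their genes together when the proteasome is impaired.

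The profile came from chromatin immunoprecipitation and sequencing (ChIP-seq), in which DNA bound to a protein is recovered with an antibody and sequenced. The worms were strain RW12255, in which TY1, EGFP and 3xFLAG tags had been inserted at the flt-1 gene, now annotated as baz-2, and the fusion protein was pulled down with an antibody against GFP. FLT-1 is the worm member of the BAZ2 family, bromodomain and PHD-finger proteins that act with chromatin remodelling enzymes. There was 1 group of 2 biological replicates, both from whole mid-embryos with an age label of 1 hour obtained by egg bleaching, and chromatin was sonicated to fragments of 200 to 800 bp. Every embryo carried the tagged allele, all cell types were mixed, and no second condition or control peak list was analysed here. A signal from all cells and a stronger signal from a few cells cannot be told apart in such material. No reads or counts were used, so the depth is unknown and all values below describe peaks as the authors' peak caller reported them.

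A gene was called bound when its promoter, taken as the 1000 bp before the gene start plus the first 200 bp of the gene, held a peak summit of the authors' conservative list. That list holds 2633 peaks that passed an irreproducible discovery rate (IDR) of 0.01, a measure of how well the replicates rank the same peak. On the −log10 scale used below the threshold is 2.00, and higher values mean better agreement. For genes below it, the strongest peak of the authors' ranked list was taken, which holds 96357 peaks without a threshold. Each ranked peak has a signal from the pooled replicates and a signal in replicate 1 and in replicate 2. How the signal was scaled is not stated in the labels or the file descriptions. All coordinates are 1-based positions on ce11, the same assembly as WBcel235.

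The sequences under 2 of the bound summits, under 2 unbound ones close to the threshold, and under the strongest summit of the ribosomal protein genes are shown here because the contrast between the sets rests on such sites. They run 5′ to 3′ on the strand of the named gene, were read from the RefSeq copy of WBcel235, and reach at most 50 bp to either side of the summit without annotated UTR bases. Capitals mark matches to the motifs GTCAT and ATCAT described further on, and no match to CTGCGTC occurred in them. The motif counts given further on use the full 50 bp to either side of a summit. In that window pas-1 also has GTCAT, outside the stretch shown. The rpn-3 sequence lies at chrIII:8447104-8447204, that of rpn-7 at chrIV:9316216-9316274, that of pbs-1 at chrIV:1710681-1710781, that of pas-1 at chrV:14423305-14423359 and that of rpl-3 at chrIII:3867531-3867631.
rpn-3: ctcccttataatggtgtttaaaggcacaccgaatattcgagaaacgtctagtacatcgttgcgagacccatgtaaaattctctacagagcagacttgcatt
rpn-7: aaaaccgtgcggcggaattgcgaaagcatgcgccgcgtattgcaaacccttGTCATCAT
pbs-1: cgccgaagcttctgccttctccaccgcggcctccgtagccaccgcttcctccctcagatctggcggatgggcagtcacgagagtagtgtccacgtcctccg
pas-1: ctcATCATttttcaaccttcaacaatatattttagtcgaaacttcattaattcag
rpl-3: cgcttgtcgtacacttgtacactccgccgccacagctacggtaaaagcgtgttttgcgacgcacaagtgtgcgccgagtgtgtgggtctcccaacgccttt
The GC content of these stretches was 41.6% for rpn-3, 52.5% for rpn-7, 65.3% for pbs-1, 27.3% for pas-1 and 57.4% for rpl-3. The stretches of rpn-3, rpn-7, pas-1 and rpl-3 are intergenic, whereas that of pbs-1 is part of a coding exon of the neighbouring gene K08D12.3. The rpn-7 stretch holds the only overlapping pair of the motifs, GTCATCAT, at its 3′ end.

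FLT-1 peaks were called in the promoters of few proteasome genes and of many ribosomal protein genes. In the conservative list 4 of 33 proteasome genes were bound (12.1%, 95% Wilson interval 4.82 to 27.3%), against 41 of 78 rpl- and rps- genes (52.6%, interval 41.6 to 63.3%) and 6.82% of all nuclear protein-coding genes. The interval of the proteasome genes included the share of all genes, and it did not overlap that of the ribosomal protein genes. In this list the count of bound members was therefore read as near the background, which did not hold in the other thresholded list. The intervals cover counting error only, and neighbouring genes that share a summit are not independent. The bound members were pas-5 of the alpha ring, pbs-7 of the beta ring, and rpn-3 and rpn-7 of the lid. None of the 10 genes of the base was bound.

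rpn-3 encodes a scaffold subunit of the lid. Its peak at chrIII:8447006-8447301 had its summit 199 bp upstream of the gene start, in intergenic DNA shared with the divergent gene hsp-110, which encodes a chaperone of the Hsp110 family and starts 444 bp away. The signal was 74.4 in replicate 1, 84.2 in replicate 2 and 151 pooled, and the −log10 IDR was 3.70. The replicate signals, 79.3 ± 6.97 (SD, n = 2), were close to each other, and the peak was also called in the list made from each replicate alone.

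rpn-7, another structural subunit of the lid, had the highest pooled signal of all members. Its peak at chrIV:9316076-9316371 had a signal of 110.5 in replicate 1, 53.2 in replicate 2 and 165 pooled, with a −log10 IDR of 3.70. Replicate 1 was 2.08 times replicate 2 here, so the mean of 81.8 ± 40.5 (SD, n = 2) is less certain than that of rpn-3. The summit lay 407 bp upstream of rpn-7 but only 9 bp upstream of the divergent gene F49C12.9, and rpn-7 was not bound when each summit was given to its nearest gene start alone. The peak was called in the list of each replicate alone, although neither the other thresholded list over both replicates nor the ranked list behind it held a peak overlapping it.

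pbs-7 encodes a subunit of the beta ring. Its peak at chrI:8696303-8696598 had a summit 150 bp upstream of the gene start in intergenic DNA and within the promoter of the divergent gene F39H11.1. The signal was 53.7 in replicate 1, 30.1 in replicate 2 and 96.3 pooled, with a mean of 41.9 ± 16.7 over the replicates (SD, n = 2). The −log10 IDR of 2.36 was just inside the threshold, and neither replicate's own list held the peak.

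pas-5, of the alpha ring, was bound only through a weak and distant peak. The peak at chrI:10565283-10565578 had its summit 919 bp upstream of the gene, inside the snoRNA gene F25H2.15, and its pooled signal was 7.02. The replicate signals listed for it, 87.3 and 35.9, were those of a stronger conservative peak that it overlaps by 86 bp, whose pooled signal was 111 and whose summit lay 1129 bp upstream, outside the promoter. When overlapping peaks were merged, an alternative added after the values were seen, 3 of 33 proteasome genes were bound, without pas-5, against 41 of 78 rpl- and rps- genes and 6.81% of all genes. The strongest ranked peak of pas-5 by pooled signal was a different one, 327 bp upstream, with a signal of 35.2 in replicate 1, 28.6 in replicate 2 and 59.2 pooled and a −log10 IDR of 1.70.

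**Figure D1:**
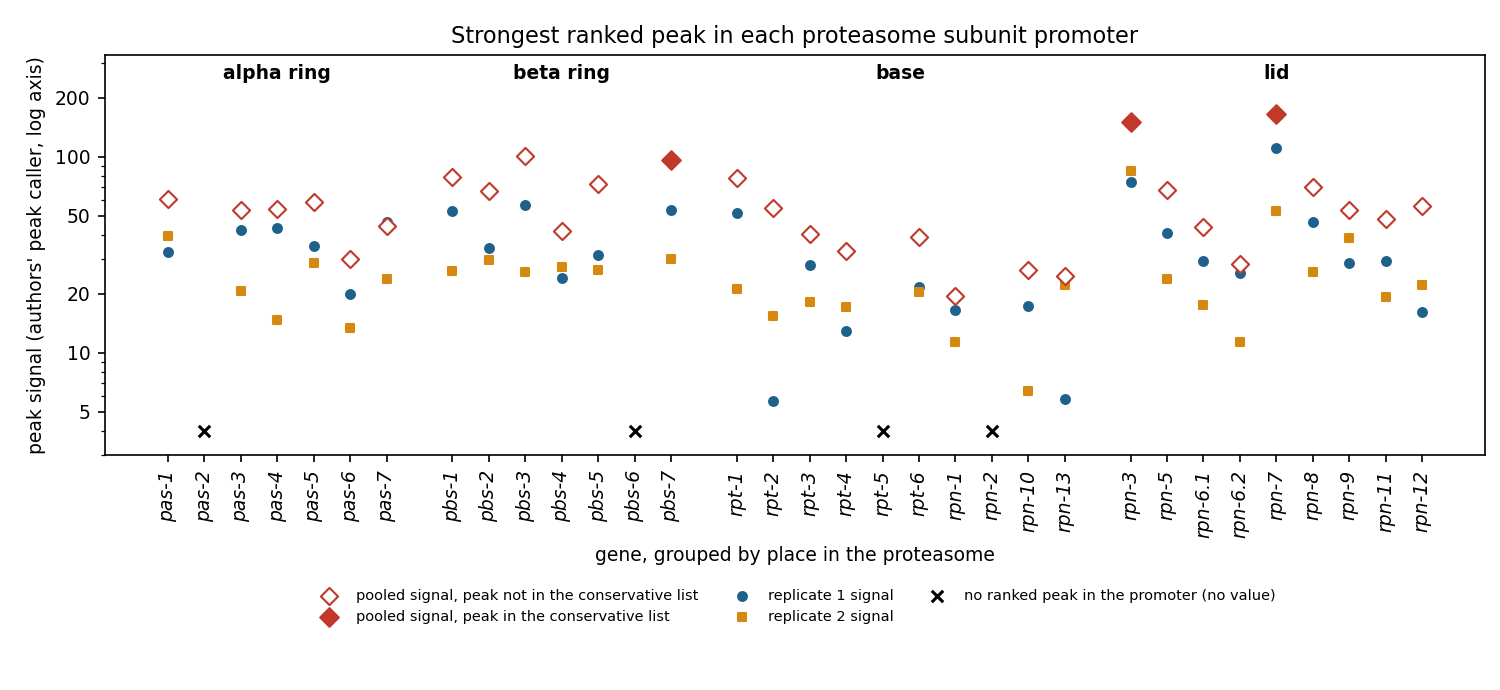
Signal of the strongest ranked FLT-1 peak in the promoter of each of the 33 proteasome genes, grouped by place in the complex, on a log axis: diamonds are the pooled signal (filled where the peak is in the conservative list), circles replicate 1, squares replicate 2, and crosses the 4 genes with no ranked peak. The filled diamonds of rpn-3 (151) and rpn-7 (165) stand above the others, while the quartiles of the 29 pooled values lie at 40.2 and 70.4.

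Several members missed the threshold by a narrow margin. pbs-1, the beta-ring subunit that in yeast carries the caspase-like site, had a peak with a −log10 IDR of 1.97 and a signal of 53.0 in replicate 1, 26.2 in replicate 2 and 79.0 pooled. That summit was 986 bp upstream of pbs-1, at the edge of the promoter and inside a coding exon of K08D12.3. pbs-3, a non-catalytic beta subunit, also reached 1.97, with signals of 56.8 in replicate 1, 25.8 in replicate 2 and 100.9 pooled. Its pooled signal was above that of pbs-7, which passed, and its summit lay 122 bp upstream of the gene start, in the 3′ UTR of ulp-2, a SUMO protease gene that ends 23 bp before pbs-3.

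rpn-8, the lid subunit that pairs with the deubiquitinase RPN-11, came next with a −log10 IDR of 1.85. Its signal was 46.6 in replicate 1, 25.7 in replicate 2 and 70.4 pooled, 312 bp upstream and shared with mrps-6, a mitochondrial ribosomal protein gene. pas-1 of the alpha ring reached 1.77 with signals of 32.6 in replicate 1, 39.3 in replicate 2 and 61.0 pooled. Its summit was 691 bp from the start of pas-1 and 5 bp upstream of rpoa-12, a gene for a subunit of RNA polymerase I that ends 107 bp before pas-1. pbs-2, which in yeast carries the trypsin-like site, reached 1.71 with signals of 34.5 in replicate 1, 29.8 in replicate 2 and 66.7 pooled, in the intergenic DNA shared with the ribosome biogenesis gene eif-6. In pbs-1, pbs-2, pbs-3 and rpn-8 replicate 2 was the lower of the replicates and in pas-1 it was the higher one.

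A looser threshold widened the proteasome count more than the ribosomal one. With ranked peaks of an IDR up to 0.05, a setting added after the values were seen, 14 of 33 proteasome genes had a summit in the promoter (42.4%, 27.2 to 59.2%), against 47 of 78 rpl- and rps- genes (60.3%, 49.2 to 70.4%) and 10.5% of all genes. The intervals of the housekeeping sets overlapped at this threshold, and both lay above the share of all genes. That share takes no account of the head-to-head promoters described further on, which were more common in both sets than among all genes. The genes that entered were the 5 just described together with pas-7, rpn-5, rpn-9, pbs-5 and rpt-1. No ranked peak in a member's promoter was above the authors' threshold and absent from the conservative list.

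The other thresholded list over both replicates gave 7 of 33 proteasome genes (21.2%, 10.7 to 37.8%), 42 of 78 rpl- and rps- genes (53.8%) and 7.12% of all genes. The interval of the proteasome genes lay above the share of all genes in this list. Here too that share takes no account of head-to-head promoters. Against the conservative list it added pbs-1, pbs-3, rpn-9 and rpt-1 and did not contain rpn-7. In the list called from replicate 1 alone 2 of 33 proteasome genes were bound (6.06%, 1.68 to 19.6%), against 26 of 78 rpl- and rps- genes (33.3%) and 4.43% of all genes. In the list from replicate 2 alone they were 2 of 33 proteasome genes (6.06%), 25 of 78 rpl- and rps- genes (32.1%) and 3.53% of all genes. rpn-3 and rpn-7 were the bound members in both of these lists. Across the thresholded lists the ribosomal share stayed between 32.1% and 53.8%, while the proteasome share lay between 6.06% and 21.2%.

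**Figure D2:**
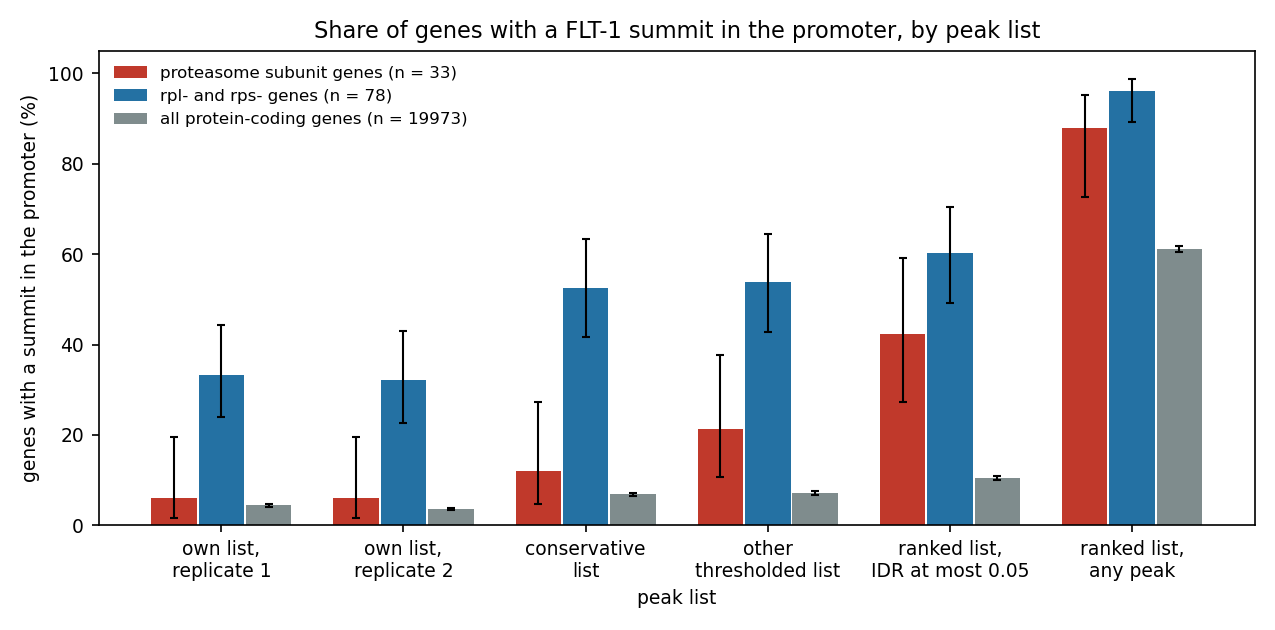
Share of genes (%) with a FLT-1 summit in the promoter in 6 peak lists, for proteasome subunit genes (red, n = 33), rpl- and rps- genes (blue, n = 78) and all nuclear protein-coding genes (grey, n = 19973), with 95% Wilson intervals as bars. The red bar is below the blue bar in each list, by the most in the conservative list (12.1% and 52.6%) and by the least in the ranked list without a threshold (87.9% and 96.2%).

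Without any threshold most members had some FLT-1 peak. A ranked peak lay in the promoter of 29 of 33 proteasome genes (87.9%, 72.7 to 95.2%), of 75 of 78 rpl- and rps- genes (96.2%, 89.3 to 98.7%) and of 61.0% of all genes. The members with no ranked peak were pas-2 of the alpha ring, pbs-6 of the beta ring, the ATPase gene rpt-5 and rpn-2, a large scaffold of the base. At least 2 ranked peaks were present in 18 of 33 proteasome promoters, 54 of 78 rpl- and rps- promoters and 7553 promoters of all genes (37.8%). A ranked peak is a weak criterion, since the list holds many peaks that the replicates do not rank alike.

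The strongest ranked peaks of the proteasome genes lay between those of the ribosomal protein genes and those of genes at large. Over the genes with such a peak, the median pooled signal was 54.2 in the 29 proteasome genes (range 19.6 to 165), 76.0 in the 75 rpl- and rps- genes (range 12.5 to 622) and 36.3 in 12193 genes of all kinds. The order was the same in each replicate, with medians in replicate 1 of 31.4 in proteasome genes, 44.8 in ribosomal protein genes and 21.5 in all genes. In replicate 2 they were 22.2 in proteasome genes, 36.5 in ribosomal protein genes and 15.6 in all genes. The median −log10 IDR was 1.21 in proteasome genes, 2.24 in ribosomal protein genes and 0.354 in all genes, against the threshold of 2.00. Replicate 1 had the higher signal at 21 of 29 proteasome peaks (72.4%), 59 of 75 ribosomal ones (78.7%) and 69.8% of all, so the offset between the replicates was not confined to the members. These medians are over genes that have a ranked peak and leave out the 4 members without one.

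**Figure D3:**
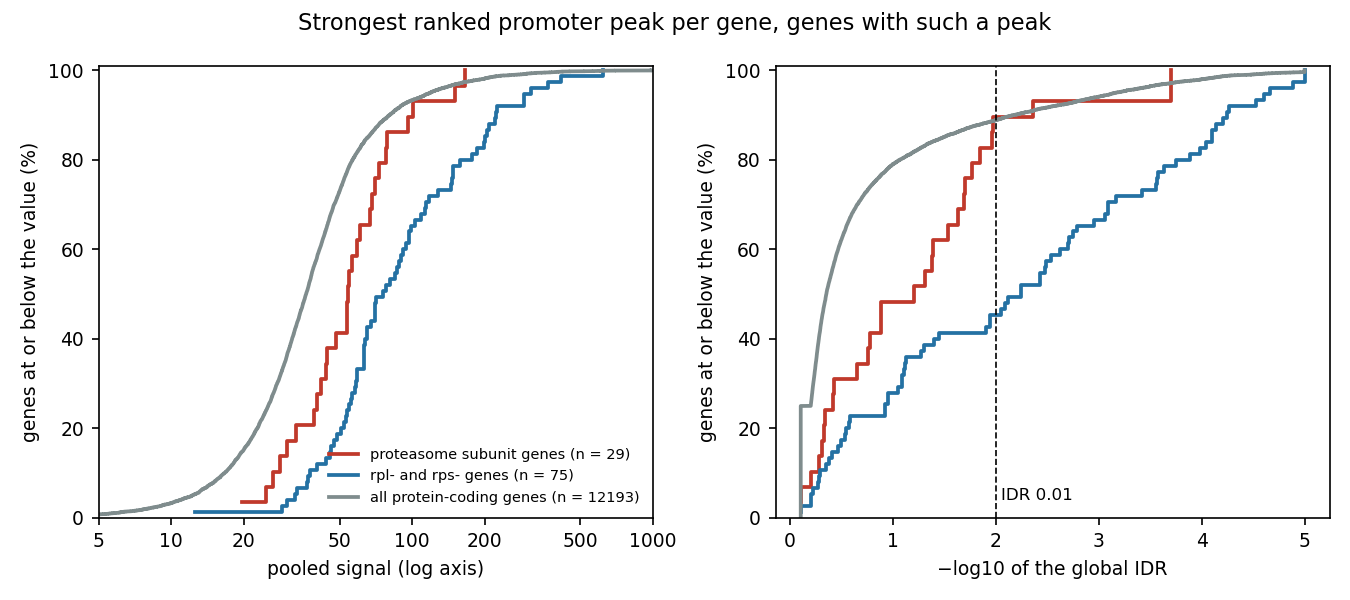
Cumulative share of genes (%) by the pooled signal (left, log axis) and by the −log10 global IDR (right) of the strongest ranked promoter peak, for proteasome subunit genes (red, n = 29), rpl- and rps- genes (blue, n = 75) and all genes with such a peak (grey, n = 12193). In both panels the red curve runs between the others over its middle range, with median signals of 54.2 (red), 76.0 (blue) and 36.3 (grey), and at the dashed line of IDR 0.01 the red curve has met the grey one.

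Many members sat in the upper range of promoter peaks, including some that did not pass the threshold. The strongest 10% of promoter ranked peaks began at a pooled signal of 57.5, and 12 of 29 proteasome genes reached it (41.4%), against 54 of 75 rpl- and rps- genes (72.0%) and 19.4% of all genes with a ranked peak. These 12 were pas-1 and pas-5 of the alpha ring, pbs-1, pbs-2, pbs-3, pbs-5 and pbs-7 of the beta ring, rpt-1 of the base, and rpn-3, rpn-5, rpn-7 and rpn-8 of the lid. For pbs-7, rpn-3 and rpn-7 this peak was in the conservative list, and pas-5 was bound through a different peak. The others were not bound in that list. Among all genes with a ranked peak, rpn-7 stood at the 97.4th percentile, rpn-3 at the 96.9th, pbs-3 at the 93.4th and pbs-7 at the 93.0th.

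By place in the complex, the median signal was highest in the beta ring and lowest in the base. The median pooled signal was 76.0 in the 6 beta-ring genes with a ranked peak (41.8 to 100.9), 56.1 in the 9 lid genes (28.3 to 165), 53.8 in 6 alpha-ring genes (30.2 to 61.0) and 36.1 in 8 base genes (19.6 to 78.0), the last close to the median of all genes. At an IDR up to 0.05 the counts were 5 of 7 in the beta ring, 5 of 9 in the lid, 3 of 7 in the alpha ring and 1 of 10 in the base, beside 10.5% of all genes. These ranges overlap and the groups are small, and no test was run between them.

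In the beta ring, the peak of pbs-5, which in yeast carries the chymotrypsin-like site, had a signal of 31.4 in replicate 1, 26.4 in replicate 2 and 72.9 pooled, with a −log10 IDR of 1.38. It lay 408 bp upstream, in a coding exon of K05C4.2, which ends 111 bp before pbs-5. Among the genes of the ring with a ranked peak, pbs-4 had the lowest pooled signal. It had 24.2 in replicate 1, 27.3 in replicate 2 and 41.8 pooled. The genes of the sites that cut proteins, pbs-1, pbs-2 and pbs-5, all stayed below the threshold of the conservative list. In that list 6.82% of all genes were bound, so these few genes do not set the cutting sites apart. pbs-1 had a summit in the other thresholded list. All of them had a promoter peak at an IDR up to 0.05, as did 10.5% of all genes.

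In the lid, rpn-5 had a peak 55 bp upstream of its start and shared with scc-1, the gene of the cohesin kleisin subunit. Its signal was 41.0 in replicate 1, 23.8 in replicate 2 and 67.9 pooled, with a −log10 IDR of 1.54. rpn-9 had 28.9 in replicate 1, 38.7 in replicate 2 and 53.7 pooled, with a −log10 IDR of 1.39, and was among the 8 members with the higher value in replicate 2. rpn-11, the deubiquitinase of the lid, had 29.6 in replicate 1, 19.3 in replicate 2 and 48.4 pooled, at a summit 22 bp inside its 5′ UTR. rpn-12, whose yeast counterpart joins the lid late in its assembly, had a pooled signal above that of either replicate, as did most members. The pooled value was 56.1, replicate 1 gave 16.1 and replicate 2 gave 22.1, and the −log10 IDR was 0.345. That summit lay 45 bp upstream of the divergent gene rad-23, which encodes a shuttle that brings ubiquitinated proteins to the proteasome. The remaining lid genes, rpn-6.1 with 43.8 and its paralog rpn-6.2 with 28.3 pooled, were lower.

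In the base, rpt-1 had the strongest peak, with a signal of 51.9 in replicate 1, 21.2 in replicate 2 and 78.0 pooled at an intergenic summit 128 bp upstream. Replicate 1 was 2.45 times replicate 2, and the −log10 IDR was 1.31. rpt-2 had 55.0 pooled but 5.68 in replicate 1 and 15.4 in replicate 2, with a −log10 IDR of 0.106, in a coding exon of the divergent gene aps-1. rpt-3, rpt-4 and rpt-6 had pooled signals of 40.2, 33.1 and 39.1. The ubiquitin receptor genes were at the low end: rpn-1 had 16.6 in replicate 1, 11.3 in replicate 2 and 19.6 pooled, rpn-10 had 17.4, 6.39 and 26.5, and rpn-13 had 5.80, 22.2 and 24.8, in that order.

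In the alpha ring, pas-6 had the lowest pooled signal of the genes with a ranked peak. It had 20.1 in replicate 1, 13.4 in replicate 2 and 30.2 pooled. pas-7 had 46.4 in replicate 1, 23.9 in replicate 2 and 44.2 pooled, with a −log10 IDR of 1.63, at a summit 77 bp upstream of the divergent gene puf-12. pas-3 had 42.4 in replicate 1, 20.7 in replicate 2 and 53.5 pooled, with a −log10 IDR of 1.21, and its summit was 17 bp from the start of use-1. pas-4 had a similar pooled signal of 54.2, but replicate 1 gave 43.3 and replicate 2 gave 14.8, and the −log10 IDR was 0.426, close to the 0.417 of pas-6.

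Where the members had a peak, it was mostly close to and upstream of the gene. The strongest ranked summit was upstream in 27 of 29 proteasome genes (93.1%), 72 of 75 rpl- and rps- genes (96.0%) and 84.7% of all genes. It lay within 500 bp upstream in 21 of 29 proteasome genes (72.4%), 63 of 75 rpl- and rps- genes (84.0%) and 48.9% of all genes. The median position was 229 bp upstream in proteasome genes, 311 bp in rpl- and rps- genes and 338 bp in all genes. Of the 29 proteasome summits, 16 were intergenic, 5 fell in a coding exon, 5 in a UTR and 1 in an intron, and for 17 the nearest protein-coding start was that of the member. The remaining summits, those of pas-4 and pas-7, fell in exons of non-coding RNA genes.

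**Figure D4:**
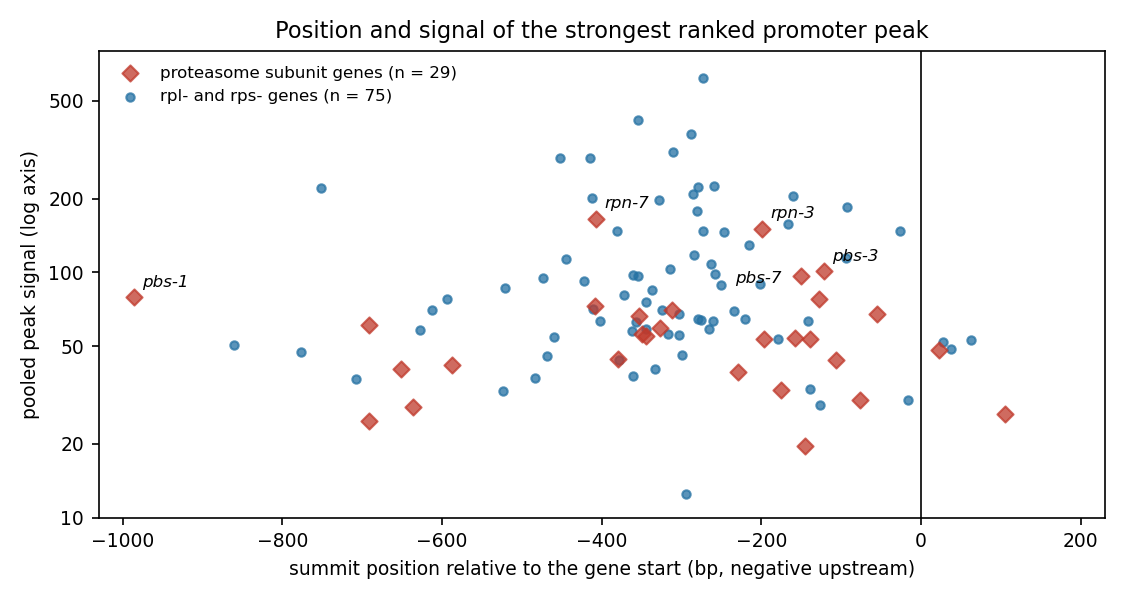
Pooled signal (log axis) of the strongest ranked promoter peak against the position of its summit relative to the gene start (bp, negative upstream), for proteasome subunit genes (red diamonds, n = 29) and rpl- and rps- genes (blue circles, n = 75), with 5 members named. Both sets lie mostly within 500 bp upstream, and above a pooled signal of 165 there are ribosomal protein genes and no proteasome gene.

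Distance to the nearest FLT-1 peak differed in the same way. The nearest conservative summit lay at a median of 8829 bp from the start of a proteasome gene, against 546 bp for rpl- and rps- genes and 17635 bp for all genes. The farthest member was rpn-9, 81073 bp from such a summit, which is also a member with a ranked peak at an IDR under 0.05. Widening the promoter to 2000 bp upstream added pbs-5 and rpt-6, for 6 of 33 proteasome genes, against 44 of 78 rpl- and rps- genes (56.4%) and 9.09% of all genes.

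Shared promoters were common among the members. A protein-coding gene on the opposite strand started within 1000 bp upstream of 21 of 33 proteasome genes (63.6%), 47 of 78 rpl- and rps- genes (60.3%) and 17.7% of all genes. Of these head-to-head genes 3 of 21 proteasome genes were bound (14.3%), against 26 of 47 ribosomal ones (55.3%) and 16.5% of all such genes. Of the others, 1 of 12 proteasome genes (8.33%), 15 of 31 ribosomal protein genes (48.4%) and 4.74% of all genes were bound. pbs-7, rpn-3 and rpn-7 each shared the bound summit with the neighbouring promoter, as did 29 of 41 bound rpl- and rps- genes (70.7%) and 49.8% of all bound genes.

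Genes that follow closely behind another gene on the same strand may lie in operons, in which case their own start need not be a promoter. Such a gene ended within 500 bp before 8 of 33 proteasome genes (24.2%), 8 of 78 rpl- and rps- genes (10.3%) and 18.1% of all genes. None of those 8 proteasome genes was bound, against 1 of the 8 ribosomal ones and 4.90% of all such genes, and of the remaining genes 4 of 25 proteasome genes (16%), 40 of 70 ribosomal protein genes (57.1%) and 7.25% of all genes were bound. When a summit at the first gene of the run was counted as well, 5 of 33 proteasome genes, 43 of 78 ribosomal protein genes and 8.92% of all genes had one. The added member was pas-1, through rrsr-1.

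Base composition did not separate the promoters but did differ under the summits. Over the 300 bp from 250 bp before to 50 bp after the gene start, the median GC content was 34.3% in proteasome genes, 33.0% in rpl- and rps- genes and 34.3% in all genes. Within 50 bp to either side of the strongest ranked summit it was 41.6% in proteasome genes (range 26.7 to 65.3%), 49.5% in rpl- and rps- genes (27.7 to 66.3%) and 40.6% in all genes. The proteasome summits were thus nearer to those of all genes, by description and without a test.

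GTCAT and ATCAT are the core letters of the element bound by SKN-1, and CTGCGTC was searched beside them, each on both strands; GTCAT and ATCAT can overlap each other, as in rpn-7. GTCAT occurred in that 300 bp stretch of 19 of 33 proteasome genes (57.6%, 40.8 to 72.8%), 26 of 78 rpl- and rps- genes (33.3%, 23.9 to 44.4%) and 39.5% of all genes. ATCAT occurred in 19 of 33 proteasome genes (57.6%), 39 of 78 rpl- and rps- genes (50%) and 55.6% of all genes. At least 1 of both was present in 28 of 33 proteasome genes (84.8%), 48 of 78 rpl- and rps- genes (61.5%) and 72.1% of all genes. CTGCGTC was found in 0 of 33 proteasome promoters (upper bound 10.4%), 1 of 78 ribosomal ones and 4.34% of all. A match is a description of the letters and not a binding site.

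Under the summits, in a shorter window, GTCAT and ATCAT were less frequent in each set than in the promoters. GTCAT lay within 50 bp of the strongest ranked summit in 6 of 29 proteasome genes (20.7%), 8 of 75 ribosomal protein genes (10.7%) and 13.6% of all genes. ATCAT lay there in 7 of 29 proteasome genes (24.1%), 9 of 75 ribosomal protein genes (12%) and 18.1% of all genes. CTGCGTC lay there in 1 of 29 proteasome genes, pas-5, in 2 of 75 ribosomal protein genes and in 2.86% of all genes. Of the bound members, rpn-7 had GTCAT in both windows, whereas rpn-3 had ATCAT in the 300 bp stretch and no match under its summit. pbs-7 and pas-5 had both GTCAT and ATCAT in the 300 bp stretch and neither under the strongest ranked summit. For pas-5 that summit, 327 bp upstream, is not the one by which it was bound, 919 bp upstream. Its summit matches therefore do not describe the bound site.

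The strongest ribosomal protein peaks show the scale of the contrast. rpl-3 had a signal of 356 in replicate 1, 276 in replicate 2 and 622 pooled at a summit 273 bp upstream, rpl-15 had 221 in replicate 1, 197 in replicate 2 and 417 pooled, and rpl-20 had 198, 157 and 368 in that order. Each of these exceeded the best member, rpn-7, in both replicates. At the other end, the weakest bound genes of that set were within the range of the unbound proteasome genes: rpl-31 had 37.8 in replicate 1, 33.6 in replicate 2 and 63.7 pooled, and rpl-39 and rps-30, which share a peak, had 39.0 in replicate 1, 37.5 in replicate 2 and 64.8 pooled. Their replicates were closer to each other than those of pbs-1 or pbs-3. Among bound genes alone the medians of the pooled signal were 124 for the 4 proteasome genes, 129 for the 41 ribosomal ones and 112 for all 1363. The proteasome median includes the weak pas-5 peak of 7.02. It was 151 when summits near small RNA genes were left out, which removed pas-5.

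Other genes of the ubiquitin system and of a folding complex were counted over whole lists. Over all lists 16 of 82 annotated genes were bound (19.5%, 12.4 to 29.4%), read against 6.82% of all genes. Of 17 assembly, activation and proteasome-associated genes 5 were bound (29.4%, 13.3 to 53.1%). ecps-1, the counterpart of the proteasome adaptor Ecm29, had a signal of 470 in replicate 1, 314 in replicate 2 and 780 pooled, at a summit shared with atx-2 and 772 bp upstream. cdc-48.1, an ATPase that extracts ubiquitinated proteins, had 186 in replicate 1, 151 in replicate 2 and 331 pooled, 178 bp upstream. Both were above every proteasome subunit gene in each replicate. pinn-1, a prolyl isomerase gene, had 203 pooled, ufd-3, a CDC-48 cofactor gene, had 134, and aip-1, a proteasome-associated zinc finger gene, had 73.0.

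Of 26 ubiquitin, E1 and E2 genes 6 were bound (23.1%, 11.0 to 42.1%): the polyubiquitin gene ubq-1 with 87.8 pooled, the SUMO-activating enzyme gene uba-2 with 72.1, and the conjugating enzyme genes ubc-3 with 93.5, ubc-6 with 136, ubc-7 with 70.1 and ubc-12 with 79.5. Of 16 cullin scaffolds and adaptors 1 was bound (6.25%), ned-8, the gene of the ubiquitin-like modifier of cullins, with 129 pooled. None of 7 genes of the COP9 signalosome, a complex built on the same plan as the proteasome lid, was bound. At these numbers the upper bound of the share is 35.4%. None of 8 genes of the SKN-1A pathway was bound (upper bound 32.4%). The intervals of the cullin, COP9 and SKN-1A lists all include the 6.82% of all genes, so their low counts do not set them apart. skn-1 itself had a strongest ranked peak of 35.8 pooled, 11.6 in replicate 1 and 15 in replicate 2. Of the 8 genes of the CCT chaperonin, a ring complex that like the proteasome is made of subunits in fixed ratio, 4 were bound (50%, 21.5 to 78.5%): cct-1 with 126 pooled, cct-5 with 79.5, cct-7 with 142 and cct-8 with 161.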

How the data were processed

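ChIP-seq of 1 group of 2 biological replicates was analysed from peak lists. The labels name ce11 as the build. The file descriptions deposited alongside say that filtered alignments and 1 further file went into each list; the sources used here do not give the peak caller, the aligner or the depth. As for units, the deposited signal is the peak caller's value for a peak and its scaling is not stated; it was used only to describe and rank peaks. The authors' IDR score runs to 1000. From the authors' ranked lists the −log10 IDR (global) was taken, and its lowest value in the conservative list was 2.00. The ranked list has 2 further signal columns, read as the replicates' own signals: a lookup by interval in each replicate's list gave the same value for 74913 of 74914 peaks (replicate 1) and 41210 of 41210 (replicate 2). Neighbouring pooled peaks can carry the values of 1 replicate peak.

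Gene starts, biotypes and features came from Ensembl release 115. A summit was given to every protein-coding gene in whose promoter it lay. Shares have 95% Wilson intervals, and no test between sets was run. Replicate spread is the SD of 2 values. The counting steps were tested on simulated data. The members and lists were chosen with earlier results of these data known. All members were accounted for. Named were the bound members, those in the top 10% of promoter ranked peaks, the 5 closest to the threshold, the 3 strongest and 3 weakest bound rpl- and rps- genes and the bound genes of the lists; values of further members were added to cover each ring and lid. Of the listed names, ubc-2, csn-7 and csn-8 matched no annotated gene name and were left out. Alternatives were other peak lists, stricter IDR, other promoter windows and starts, summits near small RNA genes left out, and 2 added after the values were seen. Scripts ran under Python 3.11.15 with SciPy 1.17.1 for intervals, pandas 2.3.3, NumPy 2.4.6 and, for plots, matplotlib 3.10.9.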

Additional observations from a re-analysis of the deposited data

How the results depend on the processing

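The count of 4 bound proteasome genes was 7 in the other thresholded list, 2 at an IDR of at most 0.001, 0 at 0.0001 and 14 for ranked peaks at 0.05 (added after the values were seen). It was 2 in the list of either replicate alone, which gave 25 to 26 of the rpl- and rps- genes (41 in the conservative list) and 706 to 885 of all genes (1363). At 0.001 the rpl- and rps- count was 25 and that of all genes 712, at 0.0001 they were 13 and 238, and at 0.05 all genes numbered 2095; giving a summit to the nearest start alone left 25 rpl- and rps- genes. The other windows, starts, overlaps, merging and the removal of summits near small RNA genes gave 3 to 6 proteasome genes, beside 5.01% to 9.09% of all genes. At each of these settings the proteasome share was below the ribosomal one; the causes of the shifts were not tested.

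The median signal of bound members, 124 pooled, rests on 4 genes. It was 79.0 in the other list, 158 at 0.001, 151 with 500 bp upstream and likewise without summits near small RNA genes, 96.3 with the nearest start alone, and 68.7 to 92.4 in the single-replicate lists. At 0.0001 no member was bound, so there is no median. The median of the strongest ranked peaks, 54.2 pooled, was 23.8 to 32.6 in the ranked lists of the single replicates, where 25 to 29 members had a peak; those lists hold signals of 1 replicate, on a lower scale. Around summits GTCAT was in 20.7% and ATCAT in 24.1% of members, against 57.6% each in promoters, in a shorter window.

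pas-5 was lost in 7 of 13 alternatives, pbs-7 in 4, rpn-7 in 3 and rpn-3 in 1. No paired analysis was possible because there is 1 group and no comparison between conditions.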
